A study of Mus musculus with 18 samples.

Results

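The 9 genes described here encode parts of the transforming growth factor beta (TGF-beta) and activin system in mouse liver. They are the ligands Tgfb1, Tgfb2 and Tgfb3, the activin subunit Inhba, the receptors Tgfbr1 and Tgfbr2, the inhibitors Bambi and Smad7, and the target gene Id1. They were taken by symbol from a deposited table of 54752 genes, and all 9 were found and passed the filter on low counts. The table holds RNA-seq counts for livers of 18 male C57BL/6 mice, 6 in each of 3 groups, with 1 library per mouse. Control mice were injected intraperitoneally with corn oil at 10 µl per g, 2 times a week over 12 weeks, with water given orally each day. Cirrhosis mice had the same schedule and volume of 10% carbon tetrachloride (CCl4), a hepatotoxic solvent, with water by mouth. Cirrhosis-PTH mice had that CCl4 course together with daily oral Pien Tze Huang (PTH), a traditional Chinese medicine unrelated to parathyroid hormone, at 0.25 mg per g from a 50 mg/ml solution. The animals were 6 weeks of age when bought. The protocols describe 45 mice, 15 per group, and no group had PTH without CCl4, so an effect of PTH on uninjured liver was not measured.

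TGF-beta is secreted in a latent complex and, once released, binds the type II receptor Tgfbr2, which recruits and phosphorylates the type I receptor Tgfbr1. Tgfbr1 phosphorylates Smad2 and Smad3, which enter the nucleus with Smad4, and activins, which are dimers of inhibin beta subunits, signal to the same Smads through their own receptors. Bone morphogenetic proteins (BMPs) signal through Smad1, Smad5 and Smad9, whose targets include the Id genes. In fibrotic liver TGF-beta is known as the main cytokine that turns stellate cells into collagen-producing myofibroblasts.

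The promoters of the ligand and receptor genes with an entry in the RefSeq table (GRCm38.p6) are shown. Each of these genes rose in Cirrhosis and fell with PTH in the comparisons below. The table held 5 of the 9 genes, Tgfb1, Tgfb2, Inhba, Tgfbr1 and Tgfbr2. Each line gives the 250 bases before the most upstream listed start, 5′ to 3′ on the gene's strand, with motif matches in capitals. The windows are chr7:25686752-25687001 (plus strand) for Tgfb1, chr13:16011601-16011850 (plus) for Inhba, chr4:47352972-47353221 (plus) for Tgfbr1 and chr9:116175364-116175613 (minus) for Tgfbr2. The Tgfb2 window is not printed because 167 of its bases lie in annotated exons.
Tgfb1: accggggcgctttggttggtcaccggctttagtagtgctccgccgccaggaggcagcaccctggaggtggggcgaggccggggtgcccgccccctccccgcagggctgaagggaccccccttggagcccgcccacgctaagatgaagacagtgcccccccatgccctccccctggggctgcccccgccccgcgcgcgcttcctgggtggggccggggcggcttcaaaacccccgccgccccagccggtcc
Inhba: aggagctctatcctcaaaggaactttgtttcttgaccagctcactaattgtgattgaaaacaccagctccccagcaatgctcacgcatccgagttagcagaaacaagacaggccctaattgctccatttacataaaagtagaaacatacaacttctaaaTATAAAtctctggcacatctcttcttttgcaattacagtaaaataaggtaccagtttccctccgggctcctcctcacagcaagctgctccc
Tgfbr1: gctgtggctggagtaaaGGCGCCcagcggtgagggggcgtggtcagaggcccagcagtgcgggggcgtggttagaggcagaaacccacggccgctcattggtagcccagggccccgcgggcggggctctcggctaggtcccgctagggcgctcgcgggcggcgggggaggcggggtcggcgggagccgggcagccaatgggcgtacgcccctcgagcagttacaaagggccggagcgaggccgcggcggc
Tgfbr2: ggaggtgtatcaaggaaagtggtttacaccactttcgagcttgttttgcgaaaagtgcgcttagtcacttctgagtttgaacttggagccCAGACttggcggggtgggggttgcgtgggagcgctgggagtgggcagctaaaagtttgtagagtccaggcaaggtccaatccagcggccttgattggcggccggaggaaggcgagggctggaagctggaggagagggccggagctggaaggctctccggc
The motifs were searched on both strands, and none of them contains another. The SMAD-binding palindrome GTCTAGAC was in none of the 5 windows and in 0.174% of 27025 mouse promoter windows of 250 bases. The shorter SMAD-binding motif CAGAC was in the Tgfbr2 window, 160 bases before the start, and at 2 places in the Tgfb2 window, against 42.2% of all windows. The BMP element GGCGCC was in the Tgfbr1 window, 233 bases before the start, against 9.57% of all windows. The AP-1 motif TGANTCA was in none of the 5 and in 6.85% of all. The TATA motif TATAAA lay 91 bases before the Inhba start and 31 bases before the Tgfb2 start, against 13% of all windows. The Tgfb1 window held none of these motifs and had a GC content of 75.2%, close to the 74.8% of Tgfbr1 and above the 43.2% of Inhba and the 58.4% of Tgfbr2. A match describes the letters only and says nothing of binding.

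Library totals ran from 62482144 to 112294112 counts, and loci known to gather ribosomal RNA reads held 31.4% to 60.8% of them. Control libraries 8 and 7 had the largest such shares, 60.8% and 50.9%. The remaining genes held 24.5 M to 67.5 M counts in each library. Levels are CPM (counts per M of TMM-scaled library size, where TMM is edgeR's trimmed-mean scaling), and adjusted p-values are from edgeR's quasi-likelihood F-test with Benjamini-Hochberg adjustment over the 21914 genes tested. The TMM factors differed by group, with 0.578 to 0.930 in Control, 1.21 to 1.37 in Cirrhosis and 0.854 to 1.23 in Cirrhosis-PTH. Fold changes between groups therefore depend on this scaling. Log2 fold changes are given ± SE and means ± SD (n = 6). Hepatocyte markers were abundant in every library, with summed levels of 23780 to 54340 CPM over the 6 markers, and the median sum was 47770 in Control, 32540 in Cirrhosis and, with PTH, 39950. The RNA is from whole liver, so fewer cells of a type and less RNA per cell cannot be told apart.

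After 12 weeks of CCl4 the whole set was higher than in Control. All 9 genes rose (adjusted p below 0.05), where 50.5% of all genes tested changed, 25.5% upward and 25% downward. Cirrhosis and Control libraries were fully separate for 6 of the 9 (Tgfb1, Tgfb2, Tgfb3, Tgfbr1, Tgfbr2 and Bambi), against 30.3% of all genes. With PTH beside CCl4, 8 of the 9 fell relative to CCl4 alone, where 38.6% of all genes changed, 18.6% downward and 20.1% upward. The exception was Bambi. Groups did not overlap for 5 of the 9 in that comparison, against 22.8% of all genes. Relative to Control, 4 of the 9 stayed higher in Cirrhosis-PTH (Tgfb2, Tgfb3, Tgfbr1 and Bambi), where 8.82% of all genes changed, 6.34% upward and 2.48% downward, and 5 did not pass the test (Tgfb1, Inhba, Tgfbr2, Smad7 and Id1). For 2 of the 9, Tgfb3 and Tgfbr1, those groups did not overlap, against 4.47% of all genes. The median log2 fold change of the set was 1.01, -0.90 and 0.19 in the 3 comparisons, beside medians of 0.015, -0.003 and 0.006 over all genes. Each pair of comparisons shares a group, so the Cirrhosis and Control values enter more than 1 of these counts.

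**Figure D1:**
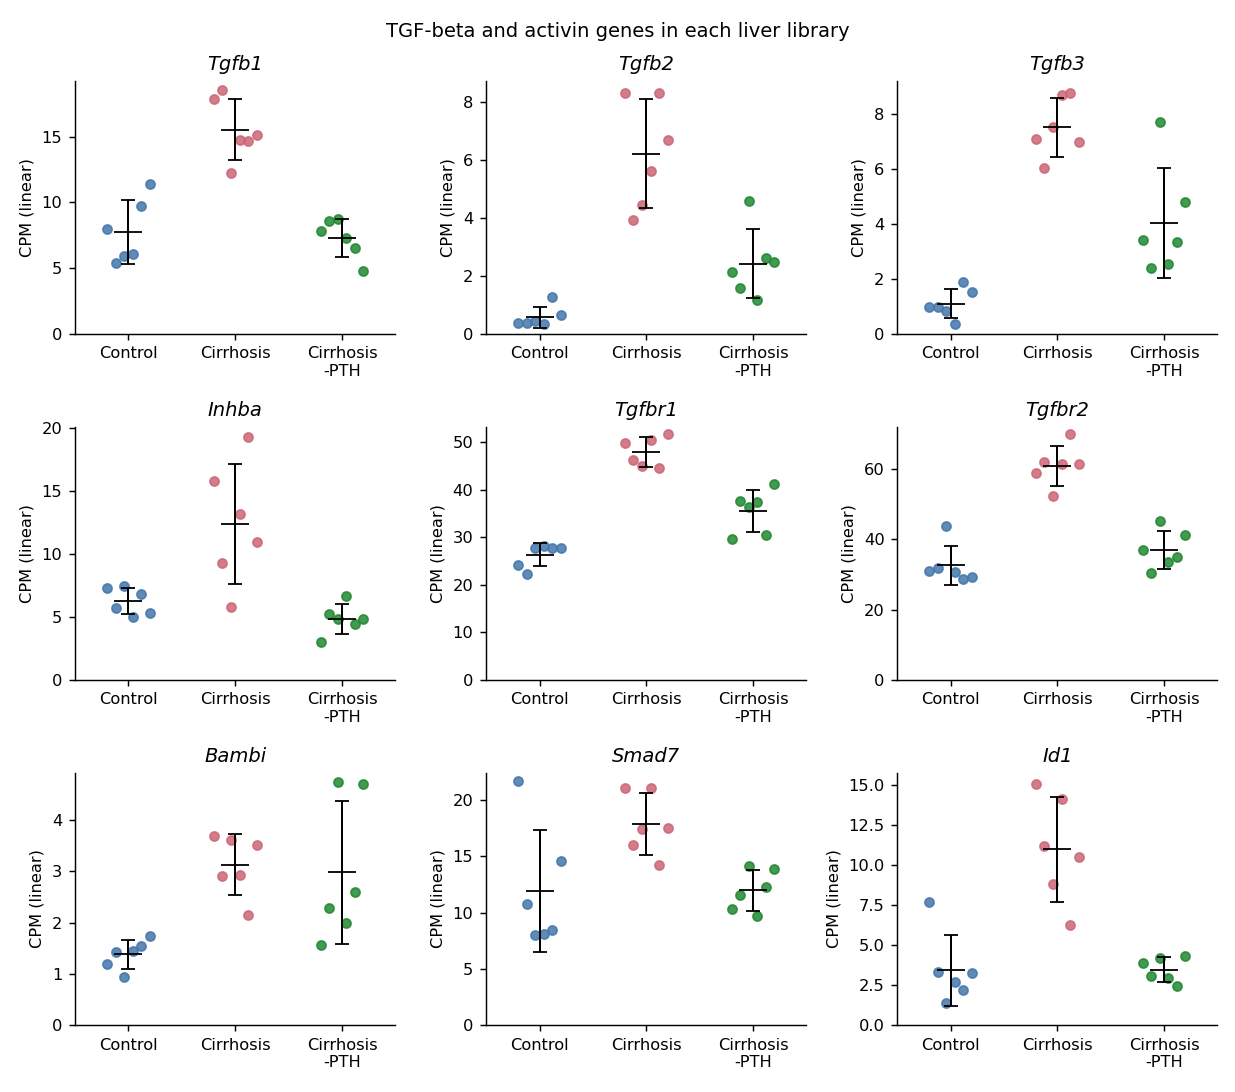
Level of each gene in every library, in CPM (y axis, linear, from 0), by group (x axis); points are mice, the long bar is the group mean and the whiskers are 1 SD (n = 6). All 6 Cirrhosis libraries lie above all Control libraries for Tgfb1, Tgfb2, Tgfb3, Tgfbr1, Tgfbr2 and Bambi, and Bambi in Cirrhosis-PTH spreads from 1.56 to 4.73 CPM.

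Among the TGF-beta ligands, Tgfb1, which macrophages and platelets make among other cells, had the smallest rise in Cirrhosis. In Control it lay between 5.39 and 11.4 CPM with a median of 7.0, in Cirrhosis between 12.2 and 18.5 with a median of 14.9, and in Cirrhosis-PTH between 4.77 and 8.73 with a median of 7.57. Every Cirrhosis library was above every library of the other groups, and Control and Cirrhosis-PTH overlapped. The log2 fold change was 1.01 ± 0.18 in Cirrhosis against Control (2.02-fold, adjusted p = 6.63e-05) and -1.09 ± 0.18 in Cirrhosis-PTH against Cirrhosis (adjusted p = 4.05e-05). Cirrhosis-PTH differed from Control by -0.08 ± 0.18 (adjusted p = 0.842).

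Tgfb2 was, per length, the least abundant TGF-beta ligand in Control and had the largest rise of the 9 genes. Its Control libraries held 23 to 57 counts, or 0.335 to 1.26 CPM with a median of 0.407. Cirrhosis libraries lay between 3.92 and 8.33 CPM with a median of 6.16, and Cirrhosis-PTH libraries between 1.16 and 4.59 with a median of 2.31. No Cirrhosis library overlapped Control, whereas Cirrhosis-PTH replicate 3, at 4.59 CPM, lay within the Cirrhosis range and the lowest Cirrhosis-PTH library lay below the highest Control library. Tgfb2 rose by 3.51 ± 0.37 on the log2 scale in Cirrhosis (11.4-fold, adjusted p = 1.78e-07). It changed by -1.36 ± 0.33 with PTH (adjusted p = 0.00239) and remained 2.15 ± 0.36 above Control (adjusted p = 0.000776). Control replicate 7 had the highest Control level, and without both Control 7 and Control 8 the rise in Cirrhosis was 4.11.

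Tgfb3, the third isoform, followed a similar course. Control libraries ran from 0.365 to 1.87 CPM with a median of 0.969, Cirrhosis libraries from 6.04 to 8.79 with a median of 7.31, and Cirrhosis-PTH libraries from 2.38 to 7.71 with a median of 3.39. Both CCl4 groups lay wholly above Control, and Cirrhosis-PTH replicate 3, at 7.71 CPM, lay inside the Cirrhosis range while the other 5 lay below it. The log2 fold change was 2.82 ± 0.33 in Cirrhosis against Control (7.08-fold, adjusted p = 7.16e-07). It was -0.90 ± 0.30 in Cirrhosis-PTH against Cirrhosis (adjusted p = 0.0226) and 1.93 ± 0.32 against Control (adjusted p = 0.000812). The call against Cirrhosis was lost without Cirrhosis-PTH replicate 2 (-0.78, adjusted p = 0.0527) or replicate 5 (-0.85, adjusted p = 0.0502). Without replicate 3 the difference was larger, -1.19 for Tgfb3 and -1.64 for Tgfb2.

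The proportions of the isoforms were compared within libraries, where scaling of the library has no part, and both CCl4 groups differed from Control. The log2 ratio of Tgfb2 to Tgfb1 had a Control mean of -3.83 ± 0.51, a Cirrhosis mean of -1.36 ± 0.49 and a Cirrhosis-PTH mean of -1.68 ± 0.75 (SD, n = 6). By a two-sided exact permutation test with adjustment over 15 ratio tests, it was higher than in Control by 2.47 in Cirrhosis and by 2.15 in Cirrhosis-PTH (adjusted p = 0.00541 for each, from the smallest p that 924 arrangements allow, 0.0022). The CCl4 groups differed from each other by -0.32 (adjusted p = 0.501 by the exact permutation test). For Tgfb3 to Tgfb1 the ratio was -2.91 ± 0.58, -1.04 ± 0.38 and -0.94 ± 0.73 in the same order. It was higher than in Control by 1.87 and 1.96 (adjusted p = 0.00541 for each, exact permutation test), and the CCl4 groups differed by 0.10 (adjusted p = 0.777). A p above the threshold does not show that the CCl4 groups had the same ratio.

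**Figure D2:**
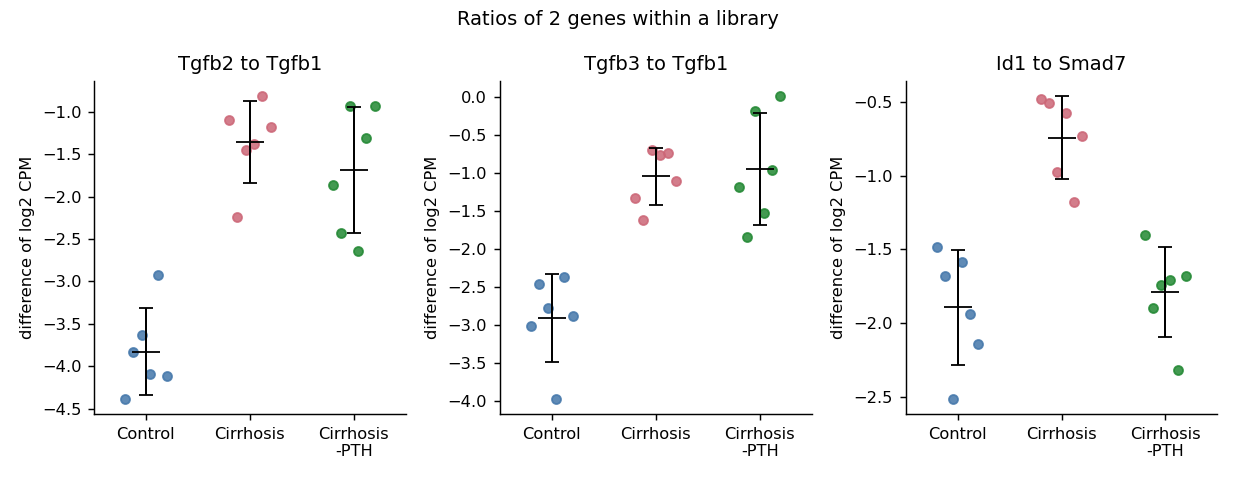
Log2 ratio of 2 genes within each library (y axis, difference of log2 CPM) by group (x axis); points are mice, the long bar is the mean and the whiskers are 1 SD (n = 6). Both CCl4 groups lie above Control for Tgfb2 to Tgfb1 and Tgfb3 to Tgfb1, whereas for Id1 to Smad7 the Cirrhosis group lies above both others.

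Inhba encodes the beta A subunit, whose dimer is activin A. Control libraries lay between 4.97 and 7.40 CPM with a median of 6.21, Cirrhosis libraries between 5.78 and 19.3 with a median of 12.0, and Cirrhosis-PTH libraries between 2.99 and 6.62 with a median of 4.78. Cirrhosis replicate 3, at 5.78 CPM, lay within the Control range, and the other 5 Cirrhosis libraries, at 9.22 or more, lay above both other groups. Inhba rose by 0.99 ± 0.23 in Cirrhosis (adjusted p = 0.0012) and changed by -1.36 ± 0.23 with PTH (adjusted p = 7.98e-05). Cirrhosis-PTH against Control gave -0.37 ± 0.23 (adjusted p = 0.355).

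Of the other beta subunits, Inhbb passed in the same comparisons and directions as Inhba, and Inhbe and Inhbc did not pass in Cirrhosis against Control. Inhbb, the beta B subunit, was 2.48 ± 1.25 CPM in Control, 4.73 ± 1.85 in Cirrhosis and, with PTH, 1.95 ± 0.88. It rose by 0.94 ± 0.35 in Cirrhosis (adjusted p = 0.0334), a call held in 11 of 18 fits that each left out 1 library (adjusted p from 0.0165 to 0.0846) and lost without Control 2, 3 or 6 or Cirrhosis 1, 4, 5 or 6. It changed by -1.27 ± 0.35 with PTH (adjusted p = 0.00721). Inhbe, the beta E subunit made by hepatocytes, was 59.0 ± 15.6 CPM in Control and 56.5 ± 9.76 in Cirrhosis (log2 fold change -0.06 ± 0.16, adjusted p = 0.774). In Cirrhosis-PTH it was 39.3 ± 7.92 CPM, lower than in Cirrhosis by -0.52 ± 0.16 (adjusted p = 0.0148) and lower than in Control by -0.59 ± 0.16 (adjusted p = 0.0295, a call held in 12 of 18 fits without 1 library and lost without Control 1, 2 or 3 or Cirrhosis-PTH 1, 3 or 6). The Inhba to Inhbe ratio was higher in Cirrhosis than in Control by 0.95 (adjusted p = 0.0139, exact permutation test) and differed by -0.76 between Cirrhosis-PTH and Cirrhosis (adjusted p = 0.0203). Inhbc, another hepatocyte subunit, passed in no comparison (adjusted p = 0.844, 0.123 and 0.315).

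Follistatin (Fst), a secreted protein that binds and neutralises activin, was highest in Cirrhosis, as Inhba was. Its levels ran from 0.305 to 2.88 CPM in Control, from 4.57 to 10.3 in Cirrhosis and from 0.667 to 1.97 in Cirrhosis-PTH. Every Cirrhosis library was above all others. Fst rose by 2.53 ± 0.43 in Cirrhosis (5.76-fold, adjusted p = 8.86e-05) and changed by -2.52 ± 0.43 with PTH (adjusted p = 0.000113), which left Cirrhosis-PTH near Control (1.3 ± 0.51 and 1.32 ± 0.99 CPM, adjusted p = 0.998).

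**Figure D3:**
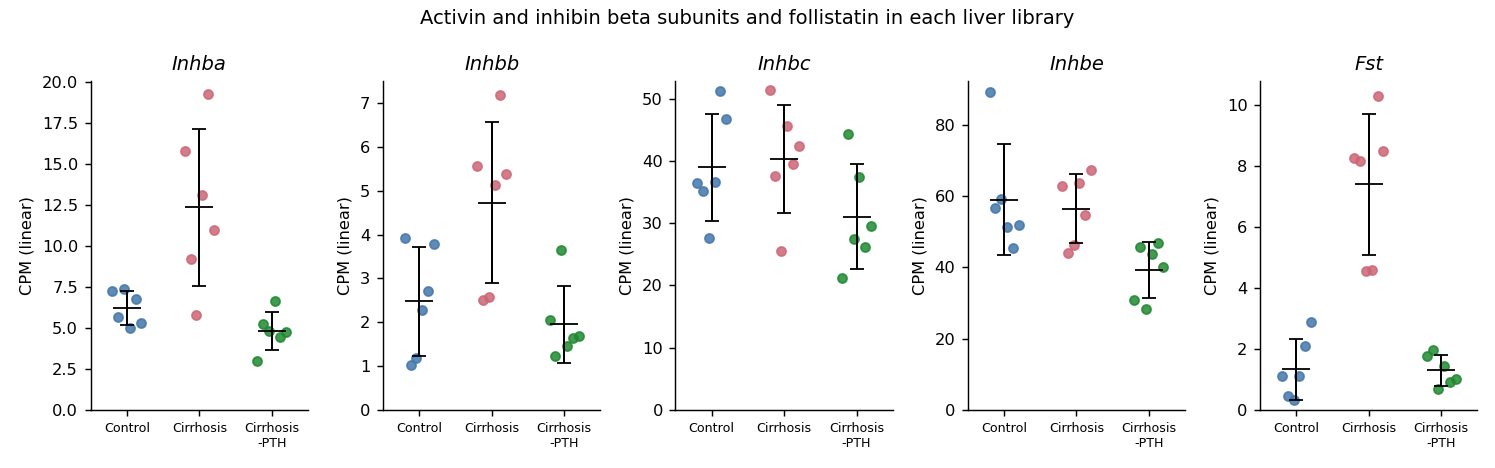
Activin and inhibin subunit genes and Fst in every library, in CPM (y axis, linear, from 0), by group (x axis); points are mice, the long bar is the mean and the whiskers are 1 SD (n = 6). Fst separates the 6 Cirrhosis libraries from all others, Inhba separates 5 of the 6, and Inhbe is lower in Cirrhosis-PTH with overlap of the groups.

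Tgfbr1, the type I receptor, gave graded levels. In Control it was 22.3 to 28.1 CPM with a median of 27.7, in Cirrhosis 44.6 to 51.8 with a median of 48.1, and in Cirrhosis-PTH 29.7 to 41.3 with a median of 36.9. None of the 3 groups overlapped another, with Cirrhosis-PTH between the other two. The log2 fold change was 0.87 ± 0.08 in Cirrhosis against Control (adjusted p = 2.11e-08), -0.44 ± 0.08 in Cirrhosis-PTH against Cirrhosis (adjusted p = 0.000187) and 0.43 ± 0.08 in Cirrhosis-PTH against Control (adjusted p = 0.0017).

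Tgfbr2, the ligand-binding type II receptor, was 28.8 to 43.9 CPM in Control with a median of 30.9, 52.3 to 70 in Cirrhosis with a median of 61.5, and 30.4 to 45.2 in Cirrhosis-PTH with a median of 36.0. All Cirrhosis libraries lay above the rest, and the other groups overlapped. Tgfbr2 rose by 0.91 ± 0.11 in Cirrhosis (adjusted p = 3.56e-07) and changed by -0.72 ± 0.11 with PTH (adjusted p = 1.13e-05). Against Control, Cirrhosis-PTH gave 0.19 ± 0.11 (adjusted p = 0.301), or 0.29 (adjusted p = 0.0556) without Control replicate 3, the highest Control library at 43.9 CPM. The ratio of Tgfbr2 to Tgfbr1 passed the exact permutation test in no comparison (adjusted p = 0.765, 0.0974 and 0.205), and passed for Cirrhosis-PTH against Cirrhosis on leaving out Cirrhosis-PTH replicate 1 or 3 (adjusted p = 0.0469 for each).

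Bambi is a truncated receptor without a kinase domain that blocks TGF-beta receptor complexes. It lay between 0.948 and 1.75 CPM in Control with a median of 1.44, between 2.14 and 3.69 in Cirrhosis with a median of 3.21, and between 1.56 and 4.73 in Cirrhosis-PTH with a median of 2.43. Cirrhosis lay wholly above Control, whereas Cirrhosis-PTH reached from the Control range to above the Cirrhosis range, with replicates 3 and 6 highest at 4.73 and 4.70 CPM. Bambi rose by 1.18 ± 0.25 in Cirrhosis (adjusted p = 0.000451). Cirrhosis-PTH differed from Cirrhosis by -0.07 ± 0.24 (adjusted p = 0.855) and was higher than Control by 1.11 ± 0.25 (adjusted p = 0.00675), or by 0.93 without either replicate 3 or replicate 6 (adjusted p = 0.0227 and 0.0234).

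Smad7, the inhibitory Smad induced by TGF-beta and BMP signals, showed the smallest rise in Cirrhosis. Control libraries ran from 8.06 to 21.7 CPM with a median of 9.59, Cirrhosis libraries from 14.2 to 21.0 with a median of 17.5, and Cirrhosis-PTH libraries from 9.73 to 14.2 with a median of 11.9. Control replicate 1, at 21.7 CPM, was the highest library of all, and 4 of the other 5 Control libraries lay below every Cirrhosis library. The log2 fold change was 0.58 ± 0.21 in Cirrhosis (adjusted p = 0.0257) and -0.57 ± 0.21 with PTH (adjusted p = 0.0344), and Cirrhosis and Cirrhosis-PTH did not overlap. Both calls depended on single libraries. The first held in 12 of 18 fits without 1 library, with a loss on leaving out Control 2, 3, 6 or 7 or Cirrhosis 1 or 4 (adjusted p up to 0.0609), and the rise was 0.84 without Control 1. The second held in 11 of 18, with a loss on leaving out Cirrhosis 1, 4 or 6 or Cirrhosis-PTH 1, 2, 4 or 5 (adjusted p up to 0.0732), and it was also lost without the filter on low counts (adjusted p = 0.0552).

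Id1, an inhibitor of basic helix-loop-helix factors and a direct BMP target, moved further than Smad7. It lay between 1.39 and 7.73 CPM in Control with a median of 2.98, between 6.27 and 15.1 in Cirrhosis with a median of 10.9, and between 2.44 and 4.32 in Cirrhosis-PTH with a median of 3.49. Control replicate 1, at 7.73 CPM, was the only Control library inside the Cirrhosis range, and all Cirrhosis-PTH libraries lay below that range. Id1 rose by 1.68 ± 0.32 in Cirrhosis (adjusted p = 0.00024), or by 2.1 without Control replicate 1, and changed by -1.66 ± 0.32 with PTH (adjusted p = 0.000358). Against Control, Cirrhosis-PTH gave 0.02 ± 0.32 (adjusted p = 0.982). The log2 ratio of Id1 to Smad7 was higher in Cirrhosis than in Control by 1.15 and lower in Cirrhosis-PTH than in Cirrhosis by -1.05 (adjusted p = 0.00541 for each, exact permutation test). Control replicate 1 was highest of its group in both genes.

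**Figure D4:**
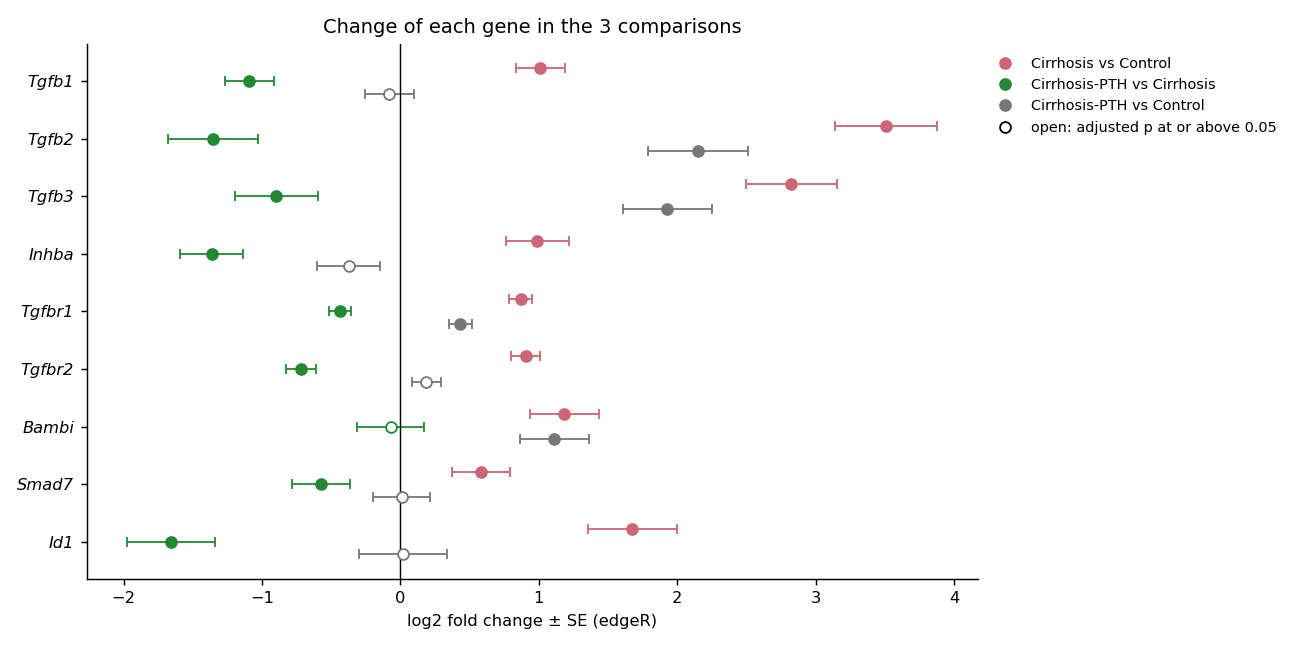
Log2 fold change of each gene (x axis, ± SE from edgeR) in the 3 comparisons (colours); open points have an adjusted p of 0.05 or more. Tgfb2 and Tgfb3 show the largest rises, 3.51 and 2.82, and Bambi alone has an open point in Cirrhosis-PTH against Cirrhosis.

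Between genes, levels were compared per kilobase of annotated exon. In Control the receptors were highest of the 9, with 4.02 ± 0.37 CPM per kb for Tgfbr1 and 3.98 ± 0.69 for Tgfbr2, which did not differ beyond their spread. Id1 (2.96 ± 1.92), Smad7 (2.64 ± 1.19) and Tgfb1 (1.54 ± 0.48) followed with overlapping spreads, then Inhba (0.974 ± 0.164), Tgfb3 (0.323 ± 0.157), Bambi (0.273 ± 0.055) and Tgfb2 (0.0978 ± 0.0615). In Cirrhosis Id1 was first at 9.49 ± 2.82 CPM per kb, with Tgfbr2 (7.46 ± 0.70) inside its spread. Tgfb3, at 2.22 ± 0.31, stood closer to Tgfb1, at 3.08 ± 0.46, than it did in Control. In Cirrhosis-PTH Tgfb3 (1.19 ± 0.59) and Tgfb1 (1.45 ± 0.29) lay within each other's spread. The hepatocyte subunits Inhbc (21.0 ± 4.62) and Inhbe (11.1 ± 2.93) exceeded Inhba in Control on the same scale.

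On GRCm38 (GENCODE M21), Tgfb1 (ENSMUSG00000002603) lies on chromosome 7 from 25687002 to 25705077 and Tgfb2 (ENSMUSG00000039239) on chromosome 1 from 186622792 to 186705989. Tgfb3 (ENSMUSG00000021253) lies on chromosome 12 from 86056745 to 86079041 and Inhba (ENSMUSG00000041324) on chromosome 13 from 16011851 to 16031621. The receptors Tgfbr1 (ENSMUSG00000007613) and Tgfbr2 (ENSMUSG00000032440) lie on chromosome 4 from 47353222 to 47414931 and on chromosome 9 from 116084293 to 116175360. Bambi (ENSMUSG00000024232) and Smad7 (ENSMUSG00000025880) are both on chromosome 18, from 3507923 to 3516404 and from 75367529 to 75395935, and Id1 (ENSMUSG00000042745) is on chromosome 2 from 152736251 to 152737410. All are protein-coding genes. Tgfb2, Tgfb3 and Inhba overlap genes of the opposite strand, and the strand setting of the counting is not given in the sources used here. The overlapping genes that share exon bases with Tgfb2 (Gm29491, 124 bases) and Tgfb3 (Gm37804, 163, and Gm48008, 257) had median counts of 0. Ttll5, which overlaps Tgfb3 without a shared exon base, had a median count of 1164 against 294 for Tgfb3, and its part in the Tgfb3 counts was not tested.

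A list of 82 other genes of the pathway, ordered by role, had 73 members that passed the filter. In Cirrhosis against Control 41 rose and 8 fell, 67.1% of those tested against 50.5% of all genes, with a median of 0.49. With PTH 8 were higher and 29 lower than in Cirrhosis (50.7% against 38.6% of all genes, median -0.34). Against Control 13 were higher and 2 lower in Cirrhosis-PTH (20.5% against 8.82%, median 0.08).

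Most genes listed as latent TGF-beta carriers and activators hold the ligand in the matrix or on cells, or release it. Of the 10 listed, 9 rose in Cirrhosis (median 1.58), where 25.5% of all genes rose. With PTH 5 of the 10 fell and none rose, where 18.6% of all genes fell, and 5 stayed above Control, where 6.34% of all genes were higher. Nrros, which tethers latent TGF-beta 1 on macrophages, was 4.52 ± 0.54 CPM in Control, 13.8 ± 2.48 in Cirrhosis and, with PTH, 5.56 ± 0.41. It rose by 1.61 ± 0.11 (adjusted p = 4.43e-10), changed by -1.31 ± 0.11 with PTH (adjusted p = 1.57e-08) and did not pass against Control (0.30 ± 0.11, adjusted p = 0.108). A pair chosen after its values were seen had the largest rises of this role. Thbs1, a matrix glycoprotein that activates latent TGF-beta, rose by 5.17 ± 0.43 in Cirrhosis (36.0-fold, adjusted p = 5.94e-08) and changed by -3.36 ± 0.39 with PTH (adjusted p = 3.78e-06). Ltbp2, a matrix protein of the latent TGF-beta binding family, rose by 4.64 ± 0.49 (adjusted p = 8.26e-07) and changed by -0.99 ± 0.41 with PTH (adjusted p = 0.0679, not a call), with Cirrhosis-PTH libraries from 7.69 to 42.6 CPM and replicate 3 highest. Without that library the Ltbp2 difference was -1.45 and passed (adjusted p = 0.0041), and it also passed in DESeq2 (adjusted p = 0.0416) and with a filter of 1 CPM in 6 libraries (adjusted p = 0.0485).

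Receptors other than Tgfbr1 and Tgfbr2 moved both ways, with 2 of 9 higher and 3 of 9 lower in Cirrhosis, a share called of 55.6% that is near the 50.5% of all genes. Acvr2a, a type II activin receptor, fell by 0.48 on the log2 scale (adjusted p = 7.36e-05) and was 0.32 higher with PTH than in Cirrhosis (adjusted p = 0.00493). Acvrl1, an endothelial type I receptor, rose by 0.62 ± 0.16 (adjusted p = 0.00318) and changed by -0.62 ± 0.16 with PTH (adjusted p = 0.00395). Of 6 signalling Smads, 3 rose and 1 fell in Cirrhosis (66.7% called, 50.5% over all genes), and with PTH 2 fell and 1 rose (50% called, 38.6% over all genes). Smad3, which carries the TGF-beta and activin signal, was 18.1 ± 2.33 CPM in Control, 27.9 ± 7.92 in Cirrhosis and, with PTH, 19.2 ± 1.29 (0.63 ± 0.14, adjusted p = 0.000841, and -0.54 ± 0.14, adjusted p = 0.00399). Smad9, a BMP Smad named after its values were seen, went the other way, with 19.5 ± 9.78, 5.81 ± 2.74 and 15.4 ± 5.99 CPM (-1.75 ± 0.43, adjusted p = 0.00276, and 1.41 ± 0.43, adjusted p = 0.015).

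Of 12 listed BMP and GDF genes with a test, which include the procollagen protease Bmp1, 5 rose and 2 fell in Cirrhosis, and 3 rose and 2 fell with PTH. The shares called, 58.3% and 41.7%, are near the 50.5% and 38.6% of all genes. Gdf10 rose by 1.69 ± 0.23 in Cirrhosis (adjusted p = 4.46e-06) and gave -0.36 ± 0.22 with PTH (adjusted p = 0.212). Gdf15, a stress-induced cytokine, was 2.16 ± 0.99 CPM in Control, 6.44 ± 0.87 in Cirrhosis and, with PTH, 0.906 ± 0.682. It rose by 1.58 ± 0.36 (adjusted p = 0.00115) and changed by -2.85 ± 0.38 with PTH (adjusted p = 6.72e-06). It lay below Control in Cirrhosis-PTH (-1.26 ± 0.37, adjusted p = 0.04), a call that held in 8 of 18 fits without 1 library and was lost without Control 1, 2, 7 or 8, Cirrhosis 4 or 6, or Cirrhosis-PTH 3, 4, 5 or 6 (adjusted p up to 0.0992).

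Most tested inhibitors also rose in Cirrhosis. Of 9 extracellular inhibitors 6 rose and 1 fell in Cirrhosis (77.8% called, 50.5% over all genes). With PTH 3 fell and 1 rose, 44.4% called, near the 38.6% of all genes. Fstl1, a secreted follistatin-like glycoprotein, rose by 2.41 ± 0.20 (adjusted p = 8.41e-09), changed by -1.24 ± 0.19 with PTH (adjusted p = 2.9e-05) and stayed 1.17 ± 0.20 above Control (adjusted p = 0.000725). Of 9 intracellular inhibitors other than Smad7, 5 rose and 1 fell in Cirrhosis, and with PTH 5 fell and 1 rose, 66.7% called in each comparison against 50.5% and 38.6% of all genes. Skil, a Smad corepressor that TGF-beta induces, rose by 1.44 ± 0.13 (adjusted p = 9.34e-09) and changed by -1.04 ± 0.13 (adjusted p = 1.07e-06). Tgif1, another corepressor, rose by 0.95 ± 0.14 (adjusted p = 7.28e-06) and changed by -1.34 ± 0.14 (adjusted p = 1.86e-07).

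TGF-beta target genes rose for 8 of 9 in Cirrhosis (median 1.69), where 25.5% of all genes rose. They fell for 7 of 9 with PTH (median -1.17), where 18.6% of all genes fell. Only 1 of 9 (11.1%), Ctgf, was above Control in Cirrhosis-PTH, where 6.34% of all genes were higher. Ctgf, a matricellular protein of fibrotic tissue, rose by 1.84 ± 0.17 (adjusted p = 2.1e-08), changed by -1.17 ± 0.17 (adjusted p = 9.78e-06) and was 0.68 ± 0.17 above Control in Cirrhosis-PTH (adjusted p = 0.0156). Of 5 BMP targets other than Id1, 2 rose in Cirrhosis and 2 fell with PTH, 40% called in each against 50.5% and 38.6% of all genes. Id3, a relative of Id1, rose by 1.14 ± 0.25 (adjusted p = 0.00109) and changed by -0.86 ± 0.25 with PTH (adjusted p = 0.0112). Id2 gave 0.20 ± 0.17 in Cirrhosis (adjusted p = 0.365) and changed by -0.69 ± 0.17 with PTH (adjusted p = 0.00342).

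**Figure D5:**
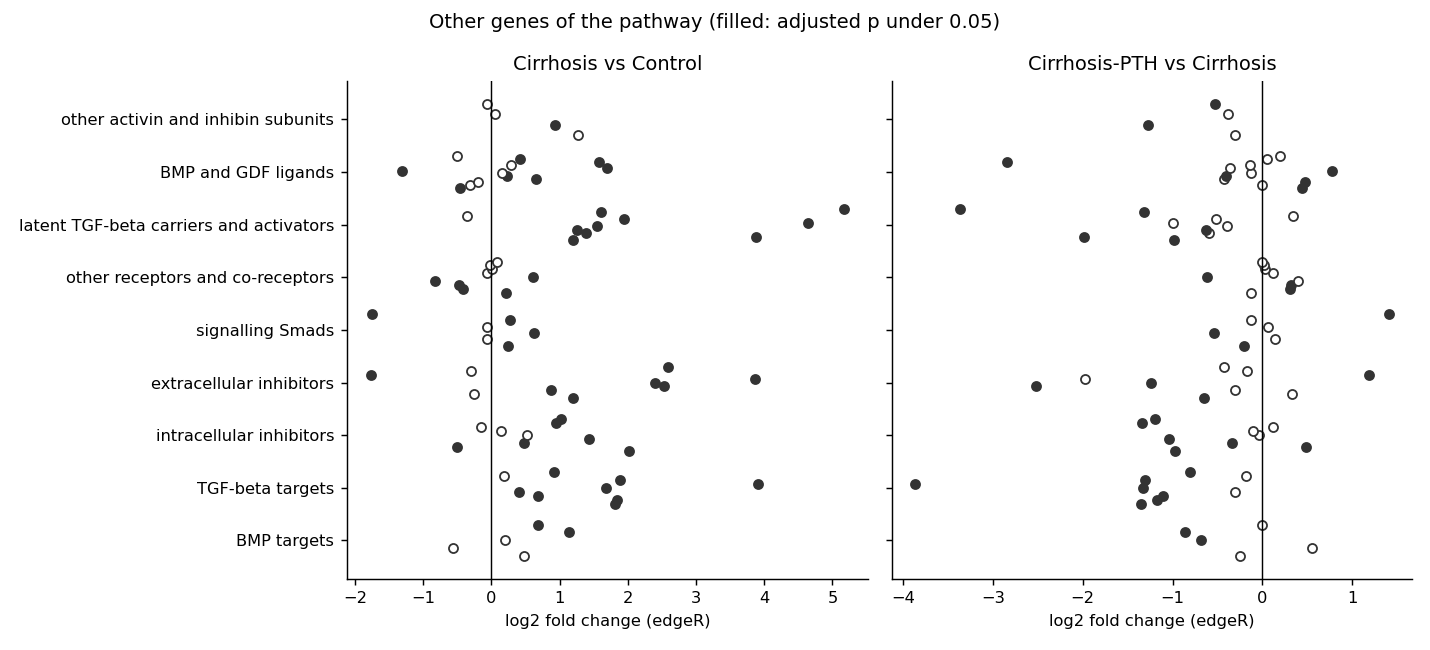
Log2 fold change (x axis, from edgeR) of the 73 tested genes of the pathway list, by role (y axis), in Cirrhosis against Control (left) and Cirrhosis-PTH against Cirrhosis (right); each point is a gene, filled where the adjusted p is under 0.05, and the 2 panels have different x scales. In the left panel 9 of 10 latent TGF-beta carriers and activators and 8 of 9 TGF-beta targets are filled to the right of 0, and in the right panel 7 of 9 TGF-beta targets are filled to the left.

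Markers of several cell types moved with these genes, while other marker lists moved little or both ways. Over all genes 25.5% rose and 25% fell in Cirrhosis against Control. In Cirrhosis-PTH 18.6% of all genes were lower and 20.1% higher than in Cirrhosis, and 6.34% were higher than in Control. The 8 myofibroblast and portal fibroblast markers all rose in Cirrhosis, and 7 of 8 fell with PTH. Their summed level ran from 34.5 to 123 CPM in Control, from 454.0 to 746 in Cirrhosis and from 96.7 to 362 in Cirrhosis-PTH, with none of the markers at 0 in any group. Cirrhosis-PTH replicate 3 was highest of its group for Tgfb1, Tgfb2, Tgfb3, Tgfbr2, Bambi, Smad7 and Ltbp2. That library was also highest for this sum (362 CPM, next 220) and for the 4 mesothelial markers (27.0 CPM). Its sums of stellate cell (322 CPM), recruited macrophage (188 CPM) and cholangiocyte (16.8 CPM) markers were likewise the highest of the group. Its Kupffer cell sum was the lowest (71.9 CPM). Control replicate 7, highest of its group for Tgfb2 and Tgfb3, had the highest Control sum of the fibroblast markers (123 CPM). Postn is in both the fibroblast list and the TGF-beta target list.

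For recruited macrophages 7 of 7 markers rose in Cirrhosis and 6 of 7 fell with PTH, with sums of 24.4 to 53.3 CPM in Control, 266 to 413 in Cirrhosis and 62.9 to 188 in Cirrhosis-PTH. Stellate cell markers rose for 5 of 8 in Cirrhosis and fell for 7 of 8 with PTH, with sums of 207 to 250, 328 to 379 and 216 to 322 CPM. Mesothelial markers rose for 1 of 4 in Cirrhosis, and 3 of 4 were higher in Cirrhosis-PTH than in Control, with sums of 0.832 to 5.40, 2.74 to 11.9 and 5.50 to 27.0 CPM. Also higher than in Control there were 6 of 7 recruited macrophage and 4 of 8 fibroblast markers. So were 2 of 5 other endothelial, 2 of 5 cholangiocyte and 1 of 8 stellate cell markers, while 1 of 5 Kupffer cell markers was lower. Of 5 Kupffer cell markers 1 rose and 2 fell in Cirrhosis, and 1 fell with PTH. Their sums, which pool changes of both directions, overlapped between all groups (127 to 223, 117 to 338 and 71.9 to 160 CPM). Hepatocyte markers were lower in Cirrhosis for 5 of 6 and higher with PTH than in Cirrhosis for 4 of 6. Cholangiocyte markers rose for 5 of 5 in Cirrhosis and fell for 1 of 5 with PTH, and the 3 tested neutrophil markers rose in Cirrhosis and fell with PTH. B and plasma cell markers rose for 3 of 4 in Cirrhosis and fell for none with PTH. Of 5 other endothelial markers 4 rose in Cirrhosis and 4 fell with PTH. Of 7 sinusoidal endothelial markers 1 rose and 2 fell in Cirrhosis, and 1 rose with PTH. T cell markers rose for 1 of 5 in Cirrhosis, and none passed with PTH. Platelet and megakaryocyte markers went both ways (2 of 5 up and 1 down in Cirrhosis, 1 up and 1 down with PTH). For red blood cells 1 of 4 markers fell in Cirrhosis and 1 rose with PTH. No marker of these lists was at 0 over a whole group, and the part of these cell types in the changes of the 9 genes was not tested. Without Cirrhosis-PTH replicate 3, Tgfb2 and Tgfb3 stayed above Control in that group, by 1.87 (adjusted p = 0.00138) and 1.64 (adjusted p = 0.00113), and Bambi differed from Cirrhosis by -0.25.

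The genes most like each member in pattern were taken by Pearson's r of log2 CPM over the 18 libraries among 10724 genes, and are given as a description. The libraries share their groups, so r after subtraction of the group means is added. For Tgfb1 they were Filip1l (r = 0.956, 0.90 within groups) and Rac2 (0.74 within groups). For Tgfb2 they were Sparcl1 (0.984 and 0.90), Aebp1 and Ccdc80, and for Tgfb3 Bicc1 (0.974 and 0.85), Ncam1 (0.971 and 0.96) and Lamb1. For Inhba they were Nup98 (0.963 and 0.93), Trak2 and Dtx2. For Tgfbr1 they were Pik3r5, Cerk and Adam8 (0.75, 0.69 and 0.72 within groups). For Tgfbr2 they were Pgd, Syt12 and Slc35f6 (0.77, 0.77 and 0.71 within groups). Bambi was most like Daam2 (0.937 and 0.85), then Tbx20 and Chst15 (0.76 and 0.81 within groups). Smad7 was most like Id1 (0.891 and 0.84), then Prkch and Soga1 (0.74 and 0.71 within groups). Id1 was most like Prkch (0.947 and 0.81), then Cyfip2 and Cxcl16 (0.67 and 0.66 within groups). Among the 9 genes the within-group r was highest for Smad7 with Id1 (0.84) and Tgfb2 with Tgfb3 (0.78). Between Tgfb1, Inhba, Tgfbr1 and Tgfbr2 it ran from -0.30 (Tgfb1 with Tgfbr2) to 0.31 (Inhba with Tgfbr1).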

How the data were processed

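The authors deposited raw counts, as whole numbers for each gene and library. Libraries came from rRNA-depleted total RNA of liver, per the labels' protocols. The submitters' processing notes name build GRCm38 and the tools Trim Galore, cutadapt 4.2, Bowtie2, Bowtie 1.3.1, HISAT2 2.2.1 and StringTie 2.1.5, without roles. The annotation release, strand setting and filters are not given in the sources used here. No 2 libraries held identical counts, and 18354 genes had no count.

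A single edgeR 4.0.16 model (R 4.3.3) held the 3 groups and all 18 libraries, with filterByExpr defaults, TMM scaling, a two-sided quasi-likelihood F-test with robust dispersion and Benjamini-Hochberg adjustment over 21914 genes and a threshold of 0.05. CPM is a count per M of TMM-scaled library size, and SE is derived from the F statistic. Ratios and correlations use log2 CPM with a prior count of 2. Ratios were compared by the two-sided exact permutation test over 924 arrangements of 6 against 6 libraries. The gene test was checked on simulated counts in which few genes changed, so the check does not cover changes as widespread as those found here.

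The 9 genes, the pathway and marker lists and the tests were chosen with earlier results of these data known. Named genes are the 9, the gene of each pathway role with the smallest p in Cirrhosis against Control and in Cirrhosis-PTH against Cirrhosis, with Fst, Inhbe, Id2 and Id3 in any case, and the 3 genes most like each of the 9 that have an established symbol and average 1 log2 CPM or more. Some genes that this rule names are not reported here. Other names were chosen after their values were seen, as said beside them, as was Inhbc, the remaining hepatocyte subunit. Coordinates and exon lengths are from GENCODE M21 and promoters from RefSeq. DESeq2 1.42.0, other filters, scalings and priors, omission of libraries and a replicate block were alternatives.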

Additional observations from a re-analysis of the deposited data

Results flagged for a closer look

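In groups of 6 libraries, the gap of the highest or lowest library to its neighbour was divided by the whole range and set against Dixon's 95% critical value. Chance flags about 1 in 20 groups, and 3 of 42 groups passed. All were single high Control libraries. Tgfb2 in Control replicate 7 was 1.26 CPM, with the others between 0.335 and 0.637 (gap share 0.671). Without it the rise of Tgfb2 in Cirrhosis was 3.90 on the log2 scale, and the difference of Cirrhosis-PTH from Control was 2.54. Tgfbr2 in Control replicate 3 was 43.9 CPM, with the others between 28.8 and 31.9 (gap share 0.794). Without it the rise of Tgfbr2 in Cirrhosis was 1.009. Id1 in Control replicate 1 was 7.73 CPM, with the others between 1.39 and 3.33 (gap share 0.693). Without it the rise of Id1 in Cirrhosis was 2.1.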

How the results depend on the processing

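Counts of called genes were within 1.5 times the reported ones under every alternative run. All genes called ranged from 9323 to 11455, from 7724 to 8958 and from 1293 to 2720 in the 3 comparisons (11073, 8464 and 1932 reported), and of the 9 genes 7 to 9, 6 to 8 and 4 were called. Of 702 recomputed values of the 9 genes, 665 kept their direction and call. Without the filter on low counts, Smad7 in Cirrhosis-PTH against Cirrhosis was -0.585 and lost its call. Without Control libraries 7 and 8, which had the largest ribosomal shares, Cirrhosis-PTH against Control gave 0.227 for Tgfb1 and -0.093 for Id1, and the Tgfbr2 to Tgfbr1 ratio in Cirrhosis against Control was -0.071, each with the sign turned and no call. The cause was not tested.

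Leaving out 1 library at a time, log2 fold changes in Cirrhosis-PTH against Control ran from -0.166 to 0.059 for Tgfb1, -0.083 to 0.269 for Smad7, -0.144 to 0.442 for Id1, -0.108 to 0.13 for Acvrl1 and -0.206 to 0.368 for Fst. In Cirrhosis-PTH against Cirrhosis they ran from -1.185 to -0.784 for Tgfb3, -0.25 to 0.061 for Bambi and -0.633 to -0.522 for Smad7. In Cirrhosis against Control they ran from 0.491 to 0.843 for Smad7 and -0.127 to 0.094 for Inhbe. Ratios ran from -0.023 to 0.208 for Id1 to Smad7 (Cirrhosis-PTH against Control), -0.017 to 0.117 and -0.334 to -0.208 for Tgfbr2 to Tgfbr1 (Cirrhosis against Control, Cirrhosis-PTH against Cirrhosis) and -0.095 to 0.275 for Tgfb3 to Tgfb1 (Cirrhosis-PTH against Cirrhosis).

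Values near 0 in Cirrhosis-PTH against Control turned sign elsewhere. Fst was -0.019 in DESeq2, -0.001 with the filter of 1 CPM in 6 libraries and -0.006 in a fit of 12 libraries. Acvrl1 was 0.016 without the filter, 0 without the ribosomal loci and 0.06 without Control 7 and 8.

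Replicate numbers are shared between groups, and the labels do not say what the numbers stand for. Deviations of same-numbered libraries from their group means correlated little (r from -0.173 to 0.164 over the pairs, over 0.1 in 1). A batch shared by some of them was not tested. With the replicate number as a block the counts of called genes were 9526, 8219 and 1354. Under that block Inhba (0.76) and Smad7 (0.66) in Cirrhosis against Control and Smad7 (-0.546) in Cirrhosis-PTH against Cirrhosis did not pass (adjusted p = 0.0555, 0.0501 and 0.0583), and against Control Cirrhosis-PTH gave 0.227 for Tgfb1 and 0.017 for Acvrl1, with the sign turned. There the calls of Ctgf (0.66, adjusted p = 0.0901) and Gdf15 (-0.858, adjusted p = 0.203) were lost, and Ltbp2 in Cirrhosis-PTH against Cirrhosis passed (-1.292, adjusted p = 0.00321). For ratios the block was an exact sign-flip test on same-numbered pairs, and with 4 pairs against Control its p cannot fall below 0.125, so no ratio could pass there. The paired differences against Control were 2.496 and 2.449 for Tgfb2 to Tgfb1 and 1.863 and 2.253 for Tgfb3 to Tgfb1 (Cirrhosis, then Cirrhosis-PTH). In Cirrhosis against Control they were -0.131 for Tgfbr2 to Tgfbr1, 0.86 for Inhba to Inhbe and 1.144 for Id1 to Smad7. In Cirrhosis-PTH against Cirrhosis they were -0.764 and -1.05 for the last pair of ratios (adjusted p = 0.188 for each, sign-flip test). With 6 pairs and adjustment over 15 ratio tests no ratio could pass there either, so the block cannot decide these differences. Depth limits Tgfb2 most, with 23 to 57 counts per Control library.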

Other observations

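Within the Cirrhosis group, Inhba was mostly lower where the sum of the fibroblast markers was higher. The pattern was noticed in the data and is given as values only. Replicate 3 had the highest marker sum (746 CPM) and the lowest Inhba (5.78 CPM) and Thbs1 (29.8 CPM) of the 6 libraries. Replicate 5 had the lowest marker sum (454.0 CPM) and the highest Inhba (19.3 CPM) and Thbs1 (154 CPM). Tgfb3 in those libraries was 7.53 and 8.79 CPM. The pattern was not particular to the fibroblast markers. The hepatocyte sum was also highest in replicate 3 (44510 CPM) and lowest in replicate 5 (23780 CPM), and was lower in each library with more Inhba. Recruited macrophage (266 and 413 CPM) and cholangiocyte (15.2 and 51.1 CPM) sums were lowest in replicate 3 and highest in replicate 5. In the Cirrhosis-PTH group, replicate 3 again had the highest fibroblast marker sum (362 CPM). It had 4.78 CPM of Inhba, near the group's median, and 7.71 CPM of Tgfb3, the highest of the group.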
